A study of Homo sapiens with 12 samples.

Results

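HCC827 is an established human lung adenocarcinoma line whose growth is driven by a mutant EGFR gene, and its response to a drug pair was measured by bulk RNA sequencing of stranded mRNA libraries. The comparison held 4 of the 12 libraries of the series: 2 HCC827 DMSO libraries and 2 HCC827 Dormant libraries, taken by cell line and treatment from the sample titles. DMSO cells received the solvent for 24 hours. Dormant cells, as the titles call them, received 100 nM osimertinib, which inhibits EGFR, together with 30 nM trametinib, which inhibits the kinase MEK, for 2 weeks. Both groups were grown in the same medium, and the labels name no engineered allele. The other 8 libraries came from PC9 and HCC4006, also EGFR-mutant lung cancer lines, treated in the same way. Drug, length of culture and a bigger dish for dormant cells all changed together and cannot be told apart. The plates of a group were set up in duplicate, and no source says that they came from separate cultures, so p-values measure only the spread between these samples, which may be technical.

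EGFR signals through RAS, RAF, MEK and ERK to transcription factors that drive cyclin D1 and entry into the cell cycle, and ERK also induces its own inhibitors, such as the dual-specificity phosphatases. YAP and its paralog TAZ are coactivators held back by the Hippo kinases. In the nucleus they bind the TEAD factors and raise genes of matrix, cytoskeleton and survival. In EGFR-mutant lung cancer, cells that survive EGFR and MEK inhibition without dividing are known as a reservoir from which tumours regrow, and the title of the series names YAP and the control of cell death genes in such cells.

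Levels are FPKM as deposited, which are scaled to gene length and library size. A difference is the dormant minus the DMSO level as log2(FPKM + 1), given with the SE of the fit, and adding 1 makes the difference of a low gene smaller than its ratio. A gene is called, and is said to have risen or fallen, where limma's test over all 12 libraries gave a Benjamini-Hochberg adjusted p under 0.05. All adjusted p-values below are from limma. Groups are apart where both dormant libraries lay on the same side of both DMSO libraries. Sequencing depth is unknown, since no counts were analysed, and reads shared between near-identical genes could not be followed.

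All 4 libraries held RNA of epithelial carcinoma cells. Each of 10 epithelial markers, among them EPCAM and KRT7, reached 1 FPKM in at least 1 library. Their summed level was 11691 and 1289 FPKM in the DMSO libraries and 10438 and 10036 in the dormant ones, so the second DMSO library was the low one. Of 12 immune markers, CSF1R alone reached 1 FPKM and 7, including PTPRC and CD3E, were at 0 in all 4 libraries. None of 9 endothelial markers and 2 of 10 fibroblast markers, COL1A1 and LUM, reached it. The summed fibroblast markers were 1.00 and 1.56 FPKM in DMSO and 3.89 and 4.04 in dormant cells.

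The 2 DMSO libraries disagreed over much of the transcriptome. Of 14699 tested genes, 3636 (24.7%) differed by at least 1 log2 unit between them, 2636 of them higher in replicate 1 and 1000 higher in replicate 2. The 2 dormant libraries differed by that much in 241 genes (1.6%). Across genes, which are not independent replicates, Pearson's r was 0.909 for the DMSO pair and 0.986 for the dormant pair. DMSO replicate 1 also lay nearer to the DMSO libraries of the other lines, with r of 0.872 to 0.909, than DMSO replicate 2 did, with 0.776 to 0.833. Over the 3636 discordant genes, the dormant mean was nearer to DMSO replicate 1 for 2179 of the 2636 and for 799 of the 1000.

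The disagreement followed the GC content of the genes. Genes higher in DMSO replicate 1 had a median GC content of 54.3% and those higher in replicate 2 one of 41.8%, against 47.2% over all tested genes. With the tested genes split into 5 bins by GC content, from the lowest bin to the highest the median difference between the DMSO libraries went from -0.25 to 0.67. Dormant minus DMSO replicate 1 was nearly level over the same bins, at 0.15 and 0.13, whereas dormant minus DMSO replicate 2 went from -0.07 to 0.88. The share of genes called higher went from 1.63% in the lowest bin to 3.74% in the highest, and the share called lower from 1.97% to 0.459%. How far GC content entered each result below was not tested, beyond a fit with its trend removed from each library.

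**Figure D1:**
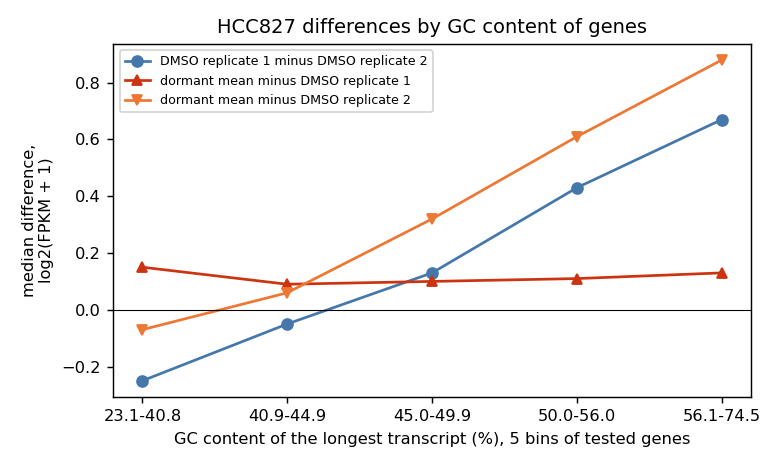
Median difference on the log2(FPKM + 1) scale (y axis) in 5 bins of tested genes by GC content in percent (x axis), for the DMSO replicates against each other and for the mean of the dormant libraries against each DMSO replicate. The 2 lines that include DMSO replicate 2 rise with GC content, to 0.67 and 0.88, while the line of dormant against DMSO replicate 1 stays between 0.09 and 0.15.

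Tubulin, MHC class I and glycolysis genes were the lists with the widest median gaps between the DMSO libraries, followed by ATF4 and lysosome genes. The actin gene ACTB was at 12726 and 1842 FPKM in DMSO and at 7915 and 8254 in dormant cells, so the dormant values lay between the controls. TUBB3, a beta tubulin, was at 217 and 3.76 FPKM in DMSO and at 213 and 170 in dormant cells. The median of 12 tubulin genes was 3.54 log2 units higher in DMSO replicate 1 than in replicate 2, so their median difference was -0.67 against the first and 2.22 against the second. For 22 glycolysis genes those medians were -1.20 and 1.00, and for 17 genes of the amino acid stress response controlled by ATF4 they were -0.37 and 1.17. These 3 lists therefore have no direction that holds against both controls.

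Discordance was also large for single transcripts, most of them outside these lists. The genes most in excess in DMSO replicate 1 were ENSG00000266077, at 2358 against 1.54 FPKM, ENSG00000272540, at 381 against 3.10, ENSG00000257010, at 94.7 against 0.77, TUBB3 and ENSG00000241838, at 71.1 against 0.90. The files give no symbol for the 4 named by an identifier. In excess in replicate 2 were the small nucleolar RNA SNORD86, at 0 against 32.5 FPKM, ENSG00000264772, at 0.38 against 27.0, the pseudogenes LSM3P3, at 0.73 against 14.7, and HNRNPA3P6, at 2.26 against 23.6, and the mitochondrial ribosomal RNA MT-RNR1, at 1361 against 8377. None of these 10 was called between dormant and DMSO cells in HCC827.

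In dormant HCC827, 450 of 14699 tested genes rose (3.06%) and 211 fell (1.44%), 661 in all (4.50%). All 661 had groups apart, while 5886 tested genes (40.0%) were apart with dormant higher and 2852 (19.4%) with dormant lower, so lying apart says little by itself. The nearest libraries of the groups were at least 2 log2 units apart for 165 of the genes that rose and 99 of those that fell. The median of all tested genes was 0.22, and it was 0.12 against DMSO replicate 1 and 0.32 against replicate 2. Of the called genes 68.1% were higher. Scaling by median of ratios made that share 50.9%, quantile normalization 52.2% and removal of the GC trend 53.9%, and each of them brought the median of all genes to 0. With the GC trend removed, 452 genes rose (3.08%) and 386 fell (2.63%), and 322 of the 450 and 198 of the 211 were among them.

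Each gene's spread was estimated from all 6 groups, and the number of calls moved with the libraries fitted. The second HCC4006 dormant library stood apart from its replicate at r of 0.654, and it and HCC827 DMSO replicate 2 are called the doubted libraries here. With both left out, 1634 genes rose (11.1%) and 965 fell (6.57%), and all 450 and 211 were among them. That fit holds a single HCC827 DMSO library, which is assumed to vary like the libraries of the other groups. Without the HCC4006 library alone, 2164 rose (14.7%) and 798 fell (5.43%). Without HCC827 DMSO replicate 2 alone, 106 rose (0.721%) and 101 fell (0.687%). Leaving out the first DMSO library gave 529 and 242, the first dormant library 62 and 22, and the second dormant library 83 and 26. Of the 661 calls, 76 were kept whichever of the 12 libraries was left out. With the 4 HCC827 libraries fitted by themselves limma called 0 genes, with a lowest adjusted p of 0.0518 and 3633 genes at an unadjusted p under 0.05. Beside many of the gene lists below, counts are given without both doubted libraries, without HCC827 DMSO replicate 2, or for both of these fits. Where such a count is absent, the calls of that list may also have moved. With either dormant library left out, no list kept more than 5 calls. Every list count is to be read beside the shares over all tested genes. These were 3.06% that rose, 1.44% that fell, 40.0% apart with dormant higher and 19.4% apart with dormant lower.

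The widest gaps between the groups joined histone, secreted and adhesion genes on the higher side and mitotic genes on the lower side. EDN2, the vasoconstrictor peptide endothelin 2, was at 8.22 and 3.41 FPKM in DMSO and at 359 and 308 in dormant cells. Both dormant values were high and close together, and EDN2 rose by 5.71 ± 0.54 (adjusted p = 0.000816), a call kept in all 12 fits that left out a library. ABHD4, a lipase of N-acyl phospholipids, was at 5.04 and 2.02 FPKM and then at 147 and 141. VTCN1, an inhibitory ligand of the B7 family, was at 0.03 and 0.04 FPKM and then at 24.3 and 24.6. C4orf26, an enamel matrix protein gene, went from 2.96 and 1.62 FPKM to 104 and 159.

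Among the genes lower in dormant cells, the gap was widest for UBE2C, the ubiquitin-conjugating enzyme of the anaphase-promoting complex. UBE2C was at 544 and 294 FPKM in DMSO and at 2.98 and 3.34 in dormant cells, a change of -6.59 ± 0.95 (adjusted p = 0.00577), kept in 10 of the 12 fits with a library left out. CDKN3, a phosphatase of cyclin-dependent kinases, fell from 221 and 317 FPKM to 4.80 and 4.27. G0S2, an inhibitor of fat breakdown, was at 850 and 366 FPKM in DMSO and at 13.0 and 9.46 in dormant cells (-5.53 ± 0.51, adjusted p = 0.000768).

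**Figure D2:**
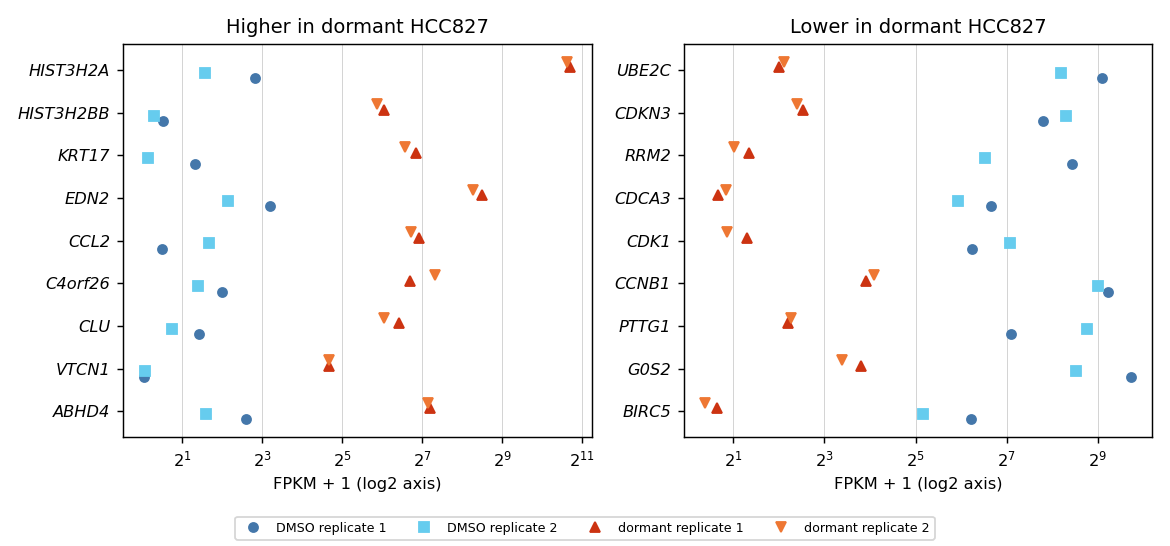
FPKM + 1 on a log2 axis (x) in each of the 4 HCC827 libraries for 18 of the called genes with the widest gaps between groups, 9 in each direction (y). On the left the dormant libraries lie to the right of both DMSO libraries, HIST3H2A reaching 1672 and 1578 FPKM, and on the right they lie to the left, CDK1 at 1.46 and 0.81 FPKM.

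Genes of mitosis fell furthest as a group. Of 25 tested, 19 fell, all 25 had the groups apart with dormant lower, and the median difference was -3.41, against 0.22 over all tested genes. Summed over the list, expression was 2303 and 1412 FPKM in DMSO and 43.0 and 40.7 in dormant cells. The count was 23 without both doubted libraries, 12 without DMSO replicate 2, 24 with the GC trend removed, and 4 without either dormant library. CDK1, the kinase that starts mitosis, was at 74.3 and 133 FPKM in DMSO and at 1.46 and 0.81 in dormant cells (-5.57 ± 0.53, adjusted p = 0.000816). CCNB1, its cyclin partner, went from 594 and 514 FPKM to 14 and 16.1. The proliferation marker MKI67 was at 6.17 and 5.12 FPKM and then at 0.03 and 0.02 (-2.70 ± 0.39, adjusted p = 0.00604). TOP2A, the topoisomerase that untangles sister chromatids, went from 34.7 and 107 FPKM to 0.60 and 0.50, and BIRC5, the survivin of the chromosomal passenger complex, from 73.6 and 35.0 to 0.56 and 0.30. Both control values exceeded both dormant values for each of these, and both dormant libraries were low together. The 6 mitosis genes not called were PLK1, CDC20, CCNB2, TPX2, KIF11 and CENPE. CDC20, an activator of the anaphase-promoting complex, was among those with discordant controls, at 471 and 27.9 FPKM in DMSO and 4.34 and 2.35 in dormant cells (-4.79 ± 1.31, adjusted p = 0.0764).

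The promoters of cell division genes are known for the letters TTTGAA, the core of the CHR element bound by the DREAM and MuvB complexes, and for CCAAT boxes bound by NF-Y. Those of CDK1 and MKI67 are shown because these genes stand for the list that moved furthest. They are the 250 bases before the RefSeq gene start on GRCh38.p14, at chr10:60778081-60778330 on the plus strand and chr10:128126424-128126673 on the minus strand, with both motifs, searched on either strand, in capitals.
CDK1: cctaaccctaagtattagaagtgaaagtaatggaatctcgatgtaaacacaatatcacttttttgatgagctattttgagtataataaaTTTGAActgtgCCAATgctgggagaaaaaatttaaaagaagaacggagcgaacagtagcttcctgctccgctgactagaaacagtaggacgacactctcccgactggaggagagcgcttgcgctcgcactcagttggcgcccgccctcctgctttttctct
MKI67: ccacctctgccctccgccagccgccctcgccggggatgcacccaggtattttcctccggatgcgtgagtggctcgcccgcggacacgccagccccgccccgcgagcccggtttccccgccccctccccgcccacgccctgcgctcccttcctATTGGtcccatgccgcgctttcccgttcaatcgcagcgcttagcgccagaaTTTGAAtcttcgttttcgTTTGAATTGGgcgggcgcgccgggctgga
In CDK1 the TTTGAA begins 161 bases and the CCAAT 150 bases before the gene start. MKI67 holds TTTGAA at 47 and 29 bases before the start and CCAAT on the opposite strand, read as ATTGG, at 98 and 24 bases, and the last pair share a base. Of 20 mitosis genes with a promoter in the table, 11 held TTTGAA and 15 held CCAAT on either strand, against 13.6% and 33.0% of 27305 promoters. Of the 15 among these 20 that fell, 7 held TTTGAA and 11 held CCAAT. A match of letters describes the sequence and is not a measured binding site.

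Fewer genes of DNA replication were called, though nearly all were lower. Of 29 tested, 8 fell and 25 had the groups apart with dormant lower, with a median of -2.08. The fit without both doubted libraries called 27, that without DMSO replicate 2 called 5, that with the GC trend removed 15, and those without either dormant library 0. RRM2, the small subunit of ribonucleotide reductase, was at 342 and 91.3 FPKM in DMSO and at 1.52 and 1.02 in dormant cells (-6.30 ± 1.06, adjusted p = 0.0104). GINS2, part of the replicative helicase, was at 30.9 and 24.4 FPKM and then at 1.08 and 2.00. The helicase subunit MCM5 shows how a discordant control enters: it was at 29.6 and 1.01 FPKM in DMSO and at 4.38 and 3.88 in dormant cells, so the groups overlapped (-0.61 ± 1.00, adjusted p = 0.825).

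Of 16 tested CDK inhibitors and quiescence genes, 4 rose, with a median of 1.14 and 13 apart with dormant higher. The count was 10 without both doubted libraries, 4 without DMSO replicate 2 and 2 without either dormant library. CDKN2B, the p15 inhibitor of CDK4 and CDK6 and a TGF-beta target, was at 1.14 and 0.74 FPKM in DMSO and at 25.0 and 15.2 in dormant cells (3.41 ± 0.36, adjusted p = 0.00135), a call kept in all 12 fits with a library left out. HBP1, a transcriptional repressor of cell cycle genes, was at 2.90 and 2.67 FPKM and then at 28.9 and 31.4, and YPEL5 was at 8.07 and 12 and then at 73.5 and 77.7. The fourth, CDKN1C or p57, was chosen for mention after its values were seen, as the remaining member called. It was listed at 0 in both DMSO libraries and at 2.95 and 2.15 FPKM in dormant cells (1.82 ± 0.18, adjusted p = 0.00107), with an adjusted p of 0.0626 with the GC trend removed. CDKN1A, which encodes p21, was at 1.30 and 0.20 FPKM in DMSO and at 3.85 and 2.35 in dormant cells (1.28 ± 0.46, adjusted p = 0.17). CDKN1B, which encodes p27, gave 0.79 ± 0.98 (adjusted p = 0.744). None of 16 tested p53 targets was called by limma, with 3 higher and 0 lower at an unadjusted p under 0.05.

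Histone genes moved in both directions, the replication-dependent H4 and the variant H2A.Z lower and several members of the clusters higher. Of 17 tested, 5 rose and 2 fell (8 and 3 without both doubted libraries, 2 and 1 without DMSO replicate 2). HIST3H2A had the widest gap of all genes, at 6.08 and 1.95 FPKM in DMSO and 1672 and 1578 in dormant cells (8.47 ± 1.25, adjusted p = 0.00618), a call kept in 9 of the 12 fits with a library left out. HIST3H2BB, a gene of the same small cluster, was at 0.42 and 0.22 FPKM and then at 65.6 and 57.4 (5.57 ± 0.39, adjusted p = 0.000265). HIST1H2AC was at 5.68 and 5.28 FPKM and then at 82.3 and 83.7. HIST1H4C, in contrast, fell from 312 and 534 FPKM to 26.7 and 24.2. Histone genes have close copies that may share reads, and the libraries were made from polyadenylated RNA, in which most replication-dependent histone transcripts are scarce.

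Genes induced by ERK, the kinase downstream of the target of trametinib, were lower. Of 19 tested MAPK output genes, 6 fell, 12 were apart with dormant lower and 3 with dormant higher, and the median was -0.60. In the fit without both doubted libraries 10 fell and 1 rose, and in that without DMSO replicate 2 3 fell. Without either dormant library 0 were called, beside 8 lower and 1 higher at an unadjusted p under 0.05 with all libraries. DUSP6, the phosphatase that ERK induces against itself, was at 13.1 and 2.99 FPKM in DMSO and at 0 in both dormant libraries (-2.91 ± 0.71, adjusted p = 0.0488), and its call was kept in 2 of the 12 fits with a library left out. PHLDA1 was at 15.6 and 14 FPKM in DMSO and at 0.48 and 0.72 in dormant cells (-3.31 ± 0.48, adjusted p = 0.00604). FOSL1, an AP-1 subunit, was at 24.6 and 8.92 FPKM and then at 0.64 and 0.57, and ETV5, an ETS factor, at 2.38 and 3.74 and then at 0.18 and 0.12. CCND1, cyclin D1, was at 24.5 and 4.57 FPKM in DMSO and at 1.49 and 1.38 in dormant cells, apart but not called (-2.29 ± 0.65, adjusted p = 0.0844). MYC was at 57.9 and 21.2 FPKM in DMSO and at 55.6 and 44.2 in dormant cells, so the groups overlapped (0.49 ± 0.50, adjusted p = 0.675).

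The ligands of the EGFR family split. AREG, amphiregulin, was at 120 and 68.0 FPKM in DMSO and at 4.68 and 4.2 in dormant cells (-4.07 ± 0.42, adjusted p = 0.00111). EREG, epiregulin, was at 13.1 and 13.3 FPKM and then at 1.11 and 0.65 (-2.93 ± 0.24, adjusted p = 0.000563). Calls for both were kept in all 12 fits with a library left out. HBEGF, the heparin-binding ligand, went the other way, from 2.80 and 1.79 FPKM to 25.3 and 24.2 (2.98 ± 0.50, adjusted p = 0.0102, kept in 9 of 12). ERBB3, a receptor that pairs with EGFR and is named here after its values were seen, also rose, from 3.16 and 1.76 FPKM to 10.7 and 12 (1.87 ± 0.41, adjusted p = 0.033, kept in 3 of 12). EGFR itself was at 80.9 and 83.8 FPKM in DMSO and at 97.7 and 67.4 in dormant cells, so the dormant values lay on either side of the controls (-0.02 ± 0.57, adjusted p = 1.0), and its sign changed with the scaling. MET, another receptor kinase, gave -1.17 ± 0.48 (adjusted p = 0.23). Of 13 other receptor kinases tested, the collagen receptor DDR1 and the insulin receptor INSR rose, DDR1 from 1.92 and 0.61 FPKM to 8.47 and 6.83 and INSR from 0.95 and 0.41 to 3.91 and 5.49. Both calls ended without DMSO replicate 2, and of the 12 fits with a library left out DDR1 kept its call in 3 and INSR in 2. AXL overlapped between groups, at 2.28 and 1.07 FPKM in DMSO and 1.06 and 1.55 in dormant cells.

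Targets of YAP and the TEAD factors were mostly higher in dormant HCC827. Of 22 tested, 8 rose and 2 fell, 19 were apart with dormant higher and 2 with dormant lower, and the median was 1.69. The counts were 12 and 2 without both doubted libraries. They were 5 and 1 without DMSO replicate 1, 0 and 1 without DMSO replicate 2, and 0 and 0 without either dormant library. The median was 1.28 against DMSO replicate 1 and 1.69 against replicate 2. ANKRD1, a nuclear ankyrin repeat protein, was at 0.34 and 0.30 FPKM in DMSO and at 19.5 and 16.7 in dormant cells (3.85 ± 0.63, adjusted p = 0.00887), a call kept in 9 of the 12 fits with a library left out. CTGF, a matricellular growth factor, was at 0.18 FPKM in both DMSO libraries and at 4.97 and 5.76 in dormant cells (2.43 ± 0.50, adjusted p = 0.0241, kept in 4 of 12), and its adjusted p was 0.0797 with the GC trend removed. IGFBP3, a binding protein of insulin-like growth factors, was the member with the largest difference, at 21.6 and 10.4 FPKM in DMSO and 286 and 372 in dormant cells (4.35 ± 0.94, adjusted p = 0.0314, kept in 2 of 12). CCDC80, a secreted matrix protein, was at 1.00 and 1.04 FPKM and then at 26.3 and 21.5 (3.61 ± 0.63, adjusted p = 0.0121). CYR61, the matricellular relative of CTGF, was at 138 and 106 FPKM in DMSO and at 385 and 355 in dormant cells, apart but not called (1.61 ± 0.43, adjusted p = 0.0693). The other members that rose, named after their values were seen, were TGFB2, AMOTL2, AJUBA and MYOF, with differences between 1.81 and 2.65. The 2 that fell, named after their values were seen, were NT5E, the ecto-enzyme that makes adenosine, from 19.2 and 6.76 FPKM to 0.76 and 1.02, and F3, the tissue factor of coagulation, from 313 and 177 to 48.7 and 55.0.

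TEAD factors bind the letters GGAATG. The promoters of CTGF and ANKRD1 are shown because these 2 genes are classical YAP targets that both rose. On GRCh38.p14 they are at chr6:131951373-131951622 and chr10:90921088-90921337, both on the minus strand, and CTGF is named CCN2 in RefSeq. GGAATG is in capitals.
CTGF: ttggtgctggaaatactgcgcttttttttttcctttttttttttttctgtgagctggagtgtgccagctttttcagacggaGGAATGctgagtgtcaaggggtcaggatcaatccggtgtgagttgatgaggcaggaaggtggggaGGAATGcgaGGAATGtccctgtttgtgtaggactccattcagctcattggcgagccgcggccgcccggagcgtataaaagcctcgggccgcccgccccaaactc
ANKRD1: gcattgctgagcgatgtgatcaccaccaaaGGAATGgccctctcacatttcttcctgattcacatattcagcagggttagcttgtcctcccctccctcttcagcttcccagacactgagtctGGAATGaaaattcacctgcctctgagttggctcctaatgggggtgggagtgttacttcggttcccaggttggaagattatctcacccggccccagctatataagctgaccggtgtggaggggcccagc
The CTGF window holds GGAATG 3 times, beginning 169, 104 and 95 bases before the gene start, and that of ANKRD1 holds it at 220 and 128 bases. Of 17 YAP and TEAD targets with a promoter in the table, 6 held GGAATG on either strand, against 11.9% of all 27305. Of the 10 among these 17 that rose or fell, 3 held it.

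Upstream of these targets, none of 19 tested Hippo pathway genes and TEAD factors was called by limma, with 5 higher and 1 lower at an unadjusted p under 0.05, and 3 rose without both doubted libraries. YAP1 was at 0.86 and 2.24 FPKM in DMSO and at 1.46 and 1.20 in dormant cells, so the groups overlapped (-0.08 ± 0.85, adjusted p = 0.996), and its sign changed with the scaling. WWTR1, which encodes TAZ, was at 38.0 and 40.8 FPKM in DMSO and at 31.8 and 18.0 in dormant cells (-0.69 ± 0.71, adjusted p = 0.672). NPPB, which encodes the natriuretic peptide BNP, was at 0.70 and 0.26 FPKM and then at 42.1 and 37.4 (4.79 ± 0.48, adjusted p = 0.00107), a call kept in all 12 fits with a library left out.

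Interferon-stimulated genes, which encode antiviral effectors, were higher in dormant HCC827. Of 26 tested, 6 rose, 22 were apart with dormant higher, and the median was 1.52. The count was 16 without both doubted libraries, without DMSO replicate 1 4, without DMSO replicate 2 1, and with the GC trend removed 8. MX1, an antiviral GTPase, was at 2.31 and 0.76 FPKM in DMSO and at 19.2 and 17.7 in dormant cells (3.01 ± 0.69, adjusted p = 0.0379, kept in 2 of the 12 fits with a library left out). IFI6 was at 5.50 and 2.66 FPKM and then at 29.3 and 22.1 (2.44 ± 0.42, adjusted p = 0.012, kept in 9 of 12). OAS1, a sensor of double-stranded RNA, was at 1.94 and 1.37 FPKM and then at 14.6 and 11.9 (2.42 ± 0.45, adjusted p = 0.0158). IFI27 had a larger gap than these, at 44.4 and 39.6 FPKM in DMSO and 498 and 525 in dormant cells, with a larger SE, and was not called (3.58 ± 1.05, adjusted p = 0.0955).

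CCL2 and CXCL10 rose most among the chemokines. CXCL10, an interferon-induced attractant of T cells, was at 0 and 0.04 FPKM in DMSO and at 22.8 and 23.9 in dormant cells (4.58 ± 0.24, adjusted p = 6.25e-05). CCL2, an attractant of monocytes, was at 0.40 and 2.19 FPKM and then at 119 and 105 (5.74 ± 0.47, adjusted p = 0.000563). Calls for both were kept in all 12 fits with a library left out. Of 15 tested cytokines and chemokines, 4 rose and 2 fell (7 and 3 without both doubted libraries, 4 and 1 without DMSO replicate 2). CXCL11 went from 0.10 and 0.43 FPKM to 8.04 and 5.93, and CXCL1, a neutrophil attractant, from 4.39 and 3.21 to 20.9 and 17.4. CXCL1 and the 2 that fell were named after their values were seen. The latter were CSF2, the growth factor GM-CSF, from 7.28 and 5.80 FPKM to 0.26 and 0.29, and IL18, from 8.09 and 14 to 1.36 and 1.16. IL6 was at 2.70 and 4.12 FPKM in DMSO and at 11.2 and 9.19 in dormant cells (1.36 ± 0.43, adjusted p = 0.122).

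Promoters of interferon-stimulated genes carry the ISRE, in which GAAA is repeated, searched here as an ISRE-like motif of GAAA, any 2 bases and GAAA. IFI6 and CXCL10 are shown because they rose and hold it, at chr1:27672193-27672442 and chr4:76023498-76023747 of GRCh38.p14, both on the minus strand, with the matches in capitals.
IFI6: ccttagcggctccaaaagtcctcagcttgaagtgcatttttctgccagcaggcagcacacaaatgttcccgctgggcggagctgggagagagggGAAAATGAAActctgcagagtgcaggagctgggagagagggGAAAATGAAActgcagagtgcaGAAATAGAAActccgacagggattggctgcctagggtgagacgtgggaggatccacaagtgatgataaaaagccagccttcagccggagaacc
CXCL10: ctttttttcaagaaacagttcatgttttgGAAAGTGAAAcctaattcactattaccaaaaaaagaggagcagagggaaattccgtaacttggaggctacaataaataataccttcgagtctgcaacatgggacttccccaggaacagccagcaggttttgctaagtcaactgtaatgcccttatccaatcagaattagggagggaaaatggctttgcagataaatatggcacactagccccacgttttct
IFI6 holds the motif at 156, 115 and 93 bases before the gene start, and CXCL10 at 221 bases. Of 21 interferon-stimulated genes with a promoter in the table, 12 held that motif on either strand, against 3.07% of all 27305. Of the 3 among these 21 that rose, IFI6 alone held it, and CXCL10 is not a member of that list.

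**Figure D3:**
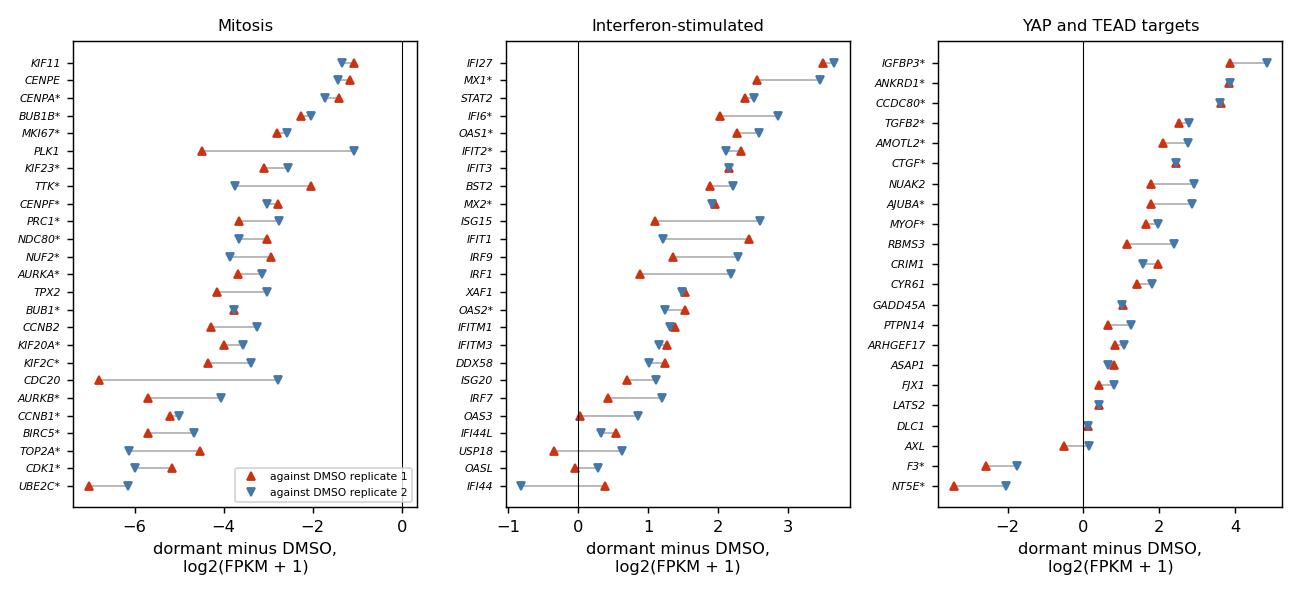
Dormant minus DMSO on the log2(FPKM + 1) scale (x axis) for tested genes (y axis) of the mitosis, interferon-stimulated and YAP and TEAD target lists, with the mean of the dormant libraries set against each DMSO replicate separately. An asterisk marks the 19, 6 and 10 called genes, and long bars, such as that of CDC20, mark genes for which the DMSO libraries disagreed.

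MHC class I genes were mostly higher in dormant cells, by amounts that depended on the control, whereas the class II median was close to that of all genes. Of 15 tested MHC class I genes, 2 rose and 13 were apart with dormant higher, with a median of 1.23 against DMSO replicate 1 and 2.85 against replicate 2. Without both doubted libraries 7 rose, and without DMSO replicate 2 alone 0 did, with 6 higher at an unadjusted p under 0.05 with all libraries. HLA-B was at 106 and 21.9 FPKM in DMSO and at 538 and 396 in dormant cells (3.22 ± 0.68, adjusted p = 0.0271). HLA-F was at 8.06 and 1.60 FPKM and then at 32.3 and 19.1 (2.42 ± 0.59, adjusted p = 0.0494), with an adjusted p of 0.0744 with the GC trend removed. Of 9 class II genes, HLA-DQA1 rose from 0.13 and 0.10 FPKM to 7.48 and 6.75 and HLA-DRB1 from 0.71 and 0.98 to 6.46 and 6.48, both also called without DMSO replicate 2. Among the 9, 6 were apart with dormant higher and 1 with dormant lower. The class II median was 0.16, below the 0.22 of all tested genes, and -0.10 with the GC trend removed. CD74, the class II invariant chain, was at 0.14 and 0 FPKM in DMSO and at 0.22 and 0.16 in dormant cells. HLA genes are close in sequence and variable, so reads may be shared between them. CD274, the checkpoint ligand PD-L1, was at 8.34 and 8.48 FPKM in DMSO and at 5.24 and 2.48 in dormant cells (-1.01 ± 0.41, adjusted p = 0.216). Of 13 complement genes, 3 rose and all 13 were apart with dormant higher (8 without both doubted libraries, 0 without DMSO replicate 2). CLU, the complement inhibitor clusterin, was at 1.69 and 0.68 FPKM in DMSO and at 85.1 and 65.2 in dormant cells (5.15 ± 1.19, adjusted p = 0.0395, kept in 2 of 12 fits with a library left out). C1R, a protease of the classical pathway, went from 1.88 and 0.02 FPKM to 9.68 and 11.6, and CD55, which protects cells from complement, from 14.7 and 2.59 to 47.4 and 51.6.

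Genes of mesenchymal and of epithelial cells were both among those that rose, with few of the epithelial ones called. Over all tested genes 3.06% rose and 40.0% were apart with dormant higher. Of 9 tested mesenchymal genes, 3 rose, with a median of 1.25 (4 without both doubted libraries, 2 without DMSO replicate 2, 1 without either dormant library). VIM, the intermediate filament vimentin, was at 26.0 and 7.23 FPKM in DMSO and at 205 and 212 in dormant cells (3.81 ± 0.57, adjusted p = 0.00646, kept in 10 of 12). SNAI2, the transcription factor Slug, was at 5.64 and 1.5 FPKM and then at 30.7 and 30.2 (2.95 ± 0.52, adjusted p = 0.0125). ZEB1 stayed below 1 FPKM in every HCC827 library, between 0.04 and 0.32. Of 26 epithelial adhesion and identity genes, 2 rose and 21 were apart with dormant higher, with a median of 0.96 (9 rose and 1 fell without both doubted libraries, and 0 were called without DMSO replicate 2). CLDN1, a tight junction claudin, was at 3.30 and 3.20 FPKM in DMSO and at 82.7 and 38.7 in dormant cells (3.76 ± 0.62, adjusted p = 0.00956), and OCLN, occludin, at 14.8 and 4.12 and then at 51.1 and 45.5. CDH1, E-cadherin, was at 85.5 and 41.8 FPKM in DMSO and at 170 and 179 in dormant cells (1.53 ± 0.57, adjusted p = 0.185).

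Among 15 keratins, KRT17, a keratin of basal and stressed epithelium, alone rose, from 1.5 and 0.10 FPKM to 114 and 94.2 (5.97 ± 1.02, adjusted p = 0.0111), and without DMSO replicate 2 limma called 0, beside 3 higher at an unadjusted p under 0.05 with all libraries. Among keratins of simple epithelium, KRT7, KRT8 and KRT18 had dormant values between discordant controls, and KRT19 did not. KRT19 was at 3155 and 237 FPKM in DMSO and at 4684 and 4807 in dormant cells. KRT18 was at 2961 and 276 FPKM in DMSO and at 753 and 632 in dormant cells, between the controls (-0.39 ± 1.48, adjusted p = 0.952).

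Some genes of the matrix and of the proteases that remodel it rose. Of 25 tested collagen and matrix genes, 7 rose, 17 were apart with dormant higher and 3 with dormant lower, with a median of 1.07 (12 rose and 1 fell without both doubted libraries, 1 and 1 without DMSO replicate 2). COL4A1, a chain of basement membrane collagen, was at 0.36 and 0.18 FPKM in DMSO and at 13.0 and 11.9 in dormant cells (3.41 ± 0.42, adjusted p = 0.0027), a call kept in all 12 fits with a library left out. COL4A2, its partner, was at 1.76 and 0.32 FPKM and then at 37.8 and 13.2 (3.62 ± 0.88, adjusted p = 0.0495, kept in 2 of 12). THBS1, thrombospondin 1, was at 13.0 and 3.6 FPKM and then at 578 and 184 (5.35 ± 0.95, adjusted p = 0.0131), with the first dormant library the higher one. FN1, fibronectin, named after its values were seen, went from 5.76 and 3.10 FPKM to 32.8 and 37.4. Limma called none of 11 integrins, with 5 higher and 0 lower at an unadjusted p under 0.05.

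Of 16 tested proteases and plasminogen genes, 6 rose and 14 were apart with dormant higher (7 without both doubted libraries, 3 without DMSO replicate 2). MMP7, matrilysin, was at 0.34 and 0.05 FPKM in DMSO and at 16.1 and 17.0 in dormant cells (3.88 ± 0.42, adjusted p = 0.00135), a call kept in all 12 fits with a library left out. The kallikreins KLK5 and KLK10, secreted serine proteases of one gene cluster, went from 0.02 and 0 FPKM to 16.4 and 13.0 and from 0.44 and 0.72 to 36.9 and 30.9. The list's median was 0.48 against DMSO replicate 1 and 2.34 against replicate 2. PLAU, the urokinase gene, was at 296 and 16 FPKM in DMSO and at 343 and 328 in dormant cells (2.24 ± 1.37, adjusted p = 0.435), a difference of 0.18 against the first control.

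Genes of the TGF-beta and BMP pathways, whose SMAD factors control many matrix genes, were higher. Of 17 tested, 5 rose and 14 were apart with dormant higher, with a median of 1.00 (6 without both doubted libraries, 0 without DMSO replicate 2). ID3, a BMP-induced inhibitor of helix-loop-helix factors, was at 12.7 and 9.96 FPKM in DMSO and at 163 and 156 in dormant cells (3.71 ± 0.58, adjusted p = 0.00764, kept in 9 of 12). ID2 was at 5.54 and 7.20 FPKM and then at 45.1 and 46.3 (2.67 ± 0.55, adjusted p = 0.0241, and 0.0943 with the GC trend removed). The ligand BMP4 was at 0.38 and 0.04 FPKM and then at 6.87 and 7.52 (2.77 ± 0.53, adjusted p = 0.0187).

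**Figure D4:**
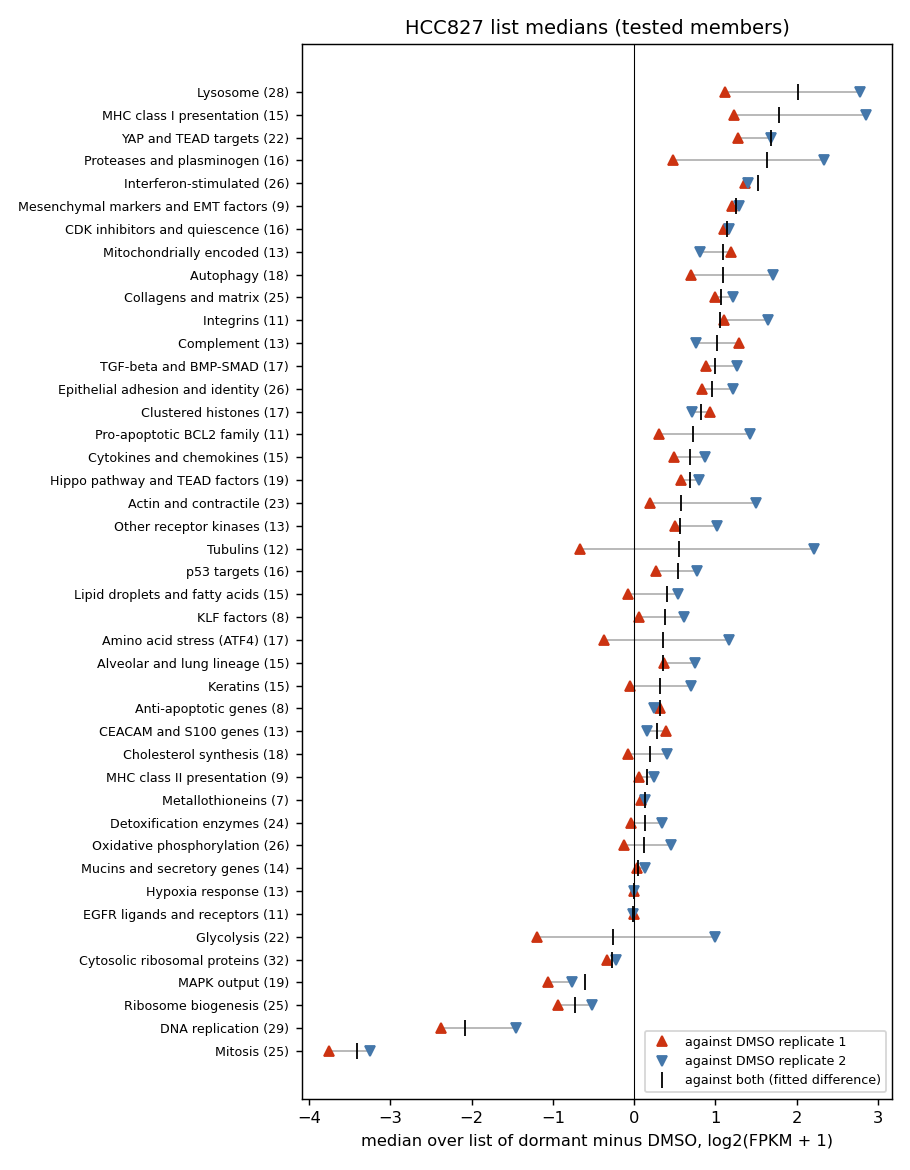
Median over the tested members of each gene list (y axis, number tested in brackets) of dormant minus DMSO on the log2(FPKM + 1) scale (x axis), against each DMSO replicate and in the fit to both. Mitosis, at -3.41, and DNA replication, at -2.08, lie to the left against either control, whereas the tubulin, glycolysis and ATF4 medians lie on opposite sides of 0.

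Lysosome and autophagy genes were mostly higher in dormant HCC827, with few called. Of 28 tested lysosome genes, 3 rose and 25 were apart with dormant higher, with a median of 2.02, which was 1.12 against DMSO replicate 1 and 2.78 against replicate 2. Without both doubted libraries 16 rose, without DMSO replicate 1 5 and without DMSO replicate 2 0, beside 13 higher at an unadjusted p under 0.05 with all libraries. Summed over the list, expression was 1610 and 991 FPKM in DMSO and 4474 and 4457 in dormant cells. ASAH1, acid ceramidase, was at 14.1 and 9.41 FPKM in DMSO and at 122 and 112 in dormant cells (3.24 ± 0.51, adjusted p = 0.0077). The peptidase TPP1 went from 4.78 and 2.16 FPKM to 43.0 and 22.8. CTSD, cathepsin D, had discordant controls, at 19.6 and 1.25 FPKM, and was at 88.0 and 69.3 in dormant cells (3.54 ± 1.56, adjusted p = 0.262). The lysosomal regulators TFEB and TFE3 bind the E-box CACGTG. It was in the promoter of 8 of 18 lysosome genes in the table, against 6.49% of all 27305. The 1 gene among these 18 that rose did not hold it.

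Of 18 autophagy genes, 3 rose and 14 were apart with dormant higher, with a median of 1.09 (8 without both doubted libraries, 1 without DMSO replicate 2). GABARAPL1, a protein of the autophagosome membrane, was at 1.83 and 0.97 FPKM in DMSO and at 55.5 and 51.0 in dormant cells (4.52 ± 0.47, adjusted p = 0.00111), a call kept in all 12 fits with a library left out. ULK1, the kinase that starts autophagy, went from 0.70 and 0.08 FPKM to 3.96 and 3.62, and the cargo receptor NBR1 from 4.12 and 2.26 to 21.6 and 20.0.

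Among the genes that control cell death, BMF was the only one of 11 tested pro-apoptotic BCL2 family members called (3 rose and 1 fell without both doubted libraries). BMF, a BH3-only protein, was at 0.23 and 0.11 FPKM in DMSO and at 3.30 and 2.46 in dormant cells (1.72 ± 0.25, adjusted p = 0.00618). The call was kept in 11 of the 12 fits with a library left out, ending without the first HCC827 dormant library, and its adjusted p was 0.0572 with the GC trend removed. BCL2L11, which encodes BIM, was at 3.44 and 2.76 FPKM in DMSO and at 5.08 and 3.98 in dormant cells (0.43 ± 0.34, adjusted p = 0.565). On the anti-apoptotic side BCL2A1, an inhibitor induced by NF-kappa B, was the 1 of 8 called. BCL2A1 was at 14.9 and 50.2 FPKM in DMSO, which differ, and at 2.98 and 2.86 in dormant cells (-2.86 ± 0.46, adjusted p = 0.00885, kept in 10 of 12). MCL1 was at 7.12 and 13.4 FPKM in DMSO and at 8.76 and 8.69 in dormant cells, between the controls (-0.16 ± 0.48, adjusted p = 0.937), and its sign changed with the scaling. BCL2L15, a BCL2 relative outside these lists, fell from 7.94 and 9.67 FPKM to 0.12 and 0.30 (-3.02 ± 0.21, adjusted p = 0.000265).

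Genes of growth and energy metabolism gave few calls. Of 25 ribosome biogenesis genes, NPM1, the nucleolar chaperone nucleophosmin, alone fell, from 3613 and 5508 FPKM to 1073 and 1072 (-2.05 ± 0.45, adjusted p = 0.0339), while 15 were apart with dormant lower and the median was -0.73. Without both doubted libraries 13 fell, and without DMSO replicate 2 limma called 0, beside 6 lower at an unadjusted p under 0.05 with all libraries. None of 22 glycolysis genes was called by limma, with 1 higher and 2 lower at an unadjusted p under 0.05, while the fit without both doubted libraries called 13 lower and 1 higher. LDHA, lactate dehydrogenase, was at 7945 and 5214 FPKM in DMSO and at 961 and 1114 in dormant cells, apart but not called (-2.64 ± 0.90, adjusted p = 0.149). GAPDH was at 19645 and 6742 FPKM in DMSO and at 4309 and 5164 in dormant cells (-1.29 ± 2.09, adjusted p = 0.824). CYCS, cytochrome c, was the 1 of 26 oxidative phosphorylation genes called, going from 495 and 1373 FPKM to 111 and 103 (-2.93 ± 0.57, adjusted p = 0.02), and the call ended without DMSO replicate 2. Of 13 mitochondrially encoded genes limma called 0, with 4 higher and 0 lower at an unadjusted p under 0.05, 12 positive differences and a median of 1.1. Without both doubted libraries 8 rose. In lipid metabolism G0S2, the fatty acid carrier FABP5 (153 and 170 FPKM, then 16.3 and 15.1) and the acyltransferase GPAT3 (14.9 and 4.74, then 0.52 and 0.32) were the 3 of 15 that fell (5 without both doubted libraries, 4 without DMSO replicate 2).

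A test of whether a gene's difference in HCC827 departed from the mean difference of PC9 and HCC4006 called 59 genes more positive (0.401%) and 23 more negative (0.156%). All 82 remained called without both doubted libraries, and 50 of them were also called in HCC827 itself. Without HCC827 DMSO replicate 2 the counts were 6 and 4. With either of the first and second HCC827 dormant libraries left out they were 13 and 3, and 16 and 3. CEACAM6, a cell surface adhesion protein, had the most positive departure among genes called in both tests, 7.21 ± 0.57 (adjusted p = 0.00144). It rose in HCC827 from 7.93 and 5.38 FPKM to 39.6 and 34.6, and fell in PC9 from 13.1 ± 1.04 to 0.135 ± 0.00707 FPKM (SD, n = 2) and in HCC4006 from 2384 ± 434 to 34.6 ± 15.4. CEACAM5, whose sequence is close to that of CEACAM6, rose from 0.61 and 0.10 FPKM to 3.18 and 3.01 in HCC827 and fell in HCC4006 (departure 3.77 ± 0.39, adjusted p = 0.00521). CXCL10 was at 0.325 ± 0.297 FPKM in dormant PC9 and was listed at 0 in all HCC4006 libraries (departure 4.38 ± 0.29, adjusted p = 0.000653). In PC9, VIM was at 11.2 ± 0.70 FPKM in DMSO and at 2.26 ± 0.308 in dormant cells (departure 4.01 ± 0.69, adjusted p = 0.0398). In HCC4006 its difference was positive, as in HCC827, though not called (1.52, adjusted p = 0.118). There VIM went from 200 ± 23.4 to 579 ± 106 FPKM. WFDC2, a secreted protease inhibitor, went from 0 and 0.04 FPKM to 3.82 and 3.31 in HCC827, with negative differences that were not called in PC9 (-1.63) and HCC4006 (-1.08). Of the 12 fits with a library left out, the HCC827 call was kept in 5 for CEACAM6, 5 for CEACAM5 and 6 for WFDC2.

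In the other direction, EREG and BCL2L15 were near 0 FPKM in every group of the other lines. EREG averaged 0.125 ± 0.134 FPKM in PC9 DMSO and 0.0675 ± 0.0177 in HCC4006 DMSO (departure -2.88 ± 0.29, adjusted p = 0.00521). CDCA3, a trigger of mitotic entry, was at 99.3 and 59.7 FPKM in HCC827 DMSO and at 0.58 and 0.80 in dormant cells. Its difference was -5.53 in HCC827, -1.82 in PC9, where it was not called, and -2.15 in HCC4006, where it fell (departure -3.55 ± 0.56, adjusted p = 0.0308). LUCAT1, a long noncoding RNA, went from 4.81 and 4.42 FPKM to 0.22 and 0, and CATSPERZ, named for a sperm calcium channel subunit, from 5.94 and 6.06 to 0.38 and 0.12. CATSPERZ was low in the other lines, averaging 0.235 ± 0.205 FPKM in PC9 DMSO and 0.595 ± 0.156 in HCC4006 DMSO. For LUCAT1 these averages were 2.90 ± 0.385 and 0.555 ± 0.396.

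**Figure D5:**
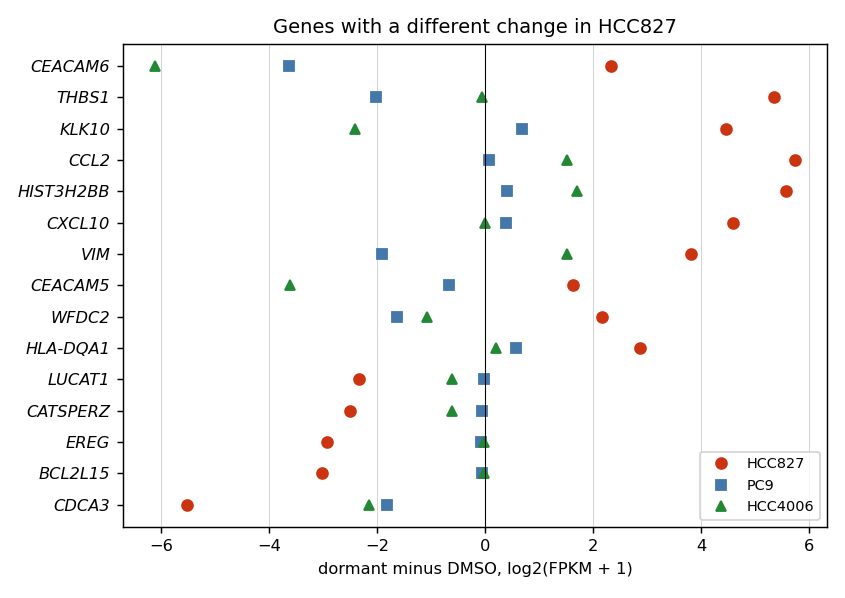
Dormant minus DMSO on the log2(FPKM + 1) scale (x axis) in HCC827, PC9 and HCC4006 for 15 named genes (y axis) whose difference in HCC827 departed from that of the other lines. The HCC827 points of CEACAM6, CEACAM5 and WFDC2 lie to the right of 0 and those of both other lines to the left.

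Most genes called in HCC827 had a difference of the same sign in each of the other lines. The lines have their own controls, so these comparisons share no library, though the fits share the estimate of spread. The HCC4006 shares, correlation, counts and medians here include its doubted dormant library, except where it is said to be left out. That library held 1948 tested genes at 0 FPKM, against 368 in its replicate. How far it entered these values was not tested. Of the 450 genes that rose in HCC827, 361 (80.2%) had a positive difference in PC9 and 375 (83.3%) in HCC4006, against 55.1% and 55.8% of all tested genes. Of the 211 that fell, 200 (94.8%) had a negative one in PC9 and 189 (89.6%) in HCC4006, against 44.9% and 43.6%. Across all tested genes, which are not independent replicates, the HCC827 differences correlated with those of PC9 at a Pearson r of 0.52 and with those of HCC4006 at 0.19. Calls in the same direction were fewer: 75 genes rose in both HCC827 and PC9, of 268 called higher in PC9, and 132 in both HCC827 and HCC4006, of 718. The genes that fell in both numbered 36 with PC9, of 131, and 46 with HCC4006, of 174. Called in the opposite direction to a rise in HCC827 were 2 genes in PC9 and 6 in HCC4006. The median of the mitosis list was -1.81 in PC9 and -1.58 in HCC4006, against -3.41 in HCC827, and limma called 0 of its 25 genes as departing from the other lines, beside 0 more positive and 15 more negative at an unadjusted p under 0.05. Without both doubted libraries it called 15 of the 25 as more negative in HCC827, among them UBE2C (adjusted p = 0.000239) and BIRC5 (adjusted p = 0.00152). Interferon-stimulated genes had medians of 0.47 and 0.21 in these lines against 1.52 in HCC827, and limma called 0 of the 26 as different, beside 5 more positive and 0 more negative at an unadjusted p under 0.05. Without both doubted libraries 4 were called more positive.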

How the data were processed

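RNA of 12 libraries in 6 groups of 2 was measured, and 4 libraries of HCC827 are described. The authors deposited FPKM values, which scale fragments by library size and gene length, rounded to 0.01. Per the submitters' processing notes hg19 and GRCh37 were the builds, and the tools named, with no role or order, were STAR 2.5.1b, Cufflinks 2.2.1 and DESeq2 1.10.1. Which tool counted the reads, and whether by strand, is not given in the sources used here. The table holds 57905 genes and 24 value columns, 2 per library, whose names differ like those of a read pair; both were averaged into 1 library.

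From these values, log2(FPKM + 1) was computed with no further scaling (pandas 2.3.3 and numpy 2.4.6 in Python 3.11.15, matplotlib 3.10.9 for figures). Genes reaching 1 FPKM in 2 or more libraries, 14699 in number, entered limma 3.58.1 in R 4.3.3 (lmFit, eBayes with a trend), with a coefficient for each of the 6 groups. Each gene's spread is therefore shared by all groups. Tests were two-sided. The SE of a difference is that of this fit. The contrast between lines was the HCC827 difference minus the mean of the other 2. The script was tested on simulated data.

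Gene type and GC content came from GENCODE v29. It also gave the symbols of 27 genes whose names had been turned into dates, and GC content for 14188 tested genes. Promoters came from RefSeq (GRCh38.p14), matched by symbol. No gene positions of the authors' build are given.

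The comparison, the gene lists and the rules were chosen with earlier results of these data known. Named genes were the 10 higher and 10 lower called genes with the widest gap between groups, up to 3 called members of each list with the largest difference, up to 5 genes in each direction called both in HCC827 and between lines, 5 genes in each direction most discordant between the DMSO replicates, and a list of single genes. Some qualifying genes are not reported here, but every fit, count and list value includes them. A gene outside this rule is said to be one where it is called. Alternatives were other sets of libraries, a replicate block, array weights, filters, pseudocounts, scalings, either column alone and, added after the data were seen, removal of the GC trend.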

Additional observations from a re-analysis of the deposited data

Results flagged for a closer look

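For 15 named genes the difference in HCC827 departed from the mean difference of PC9 and HCC4006 by limma's test of that contrast, on the log2(FPKM + 1) scale, at an adjusted p under 0.05. The departures were positive for CEACAM6 (7.21), THBS1 (6.40), KLK10 (5.34), CCL2 (4.95), HIST3H2BB (4.53), CXCL10 (4.38), VIM (4.01), CEACAM5 (3.77), WFDC2 (3.52) and HLA-DQA1 (2.48). They were negative for CDCA3 (-3.55), EREG (-2.88), BCL2L15 (-2.98), CATSPERZ (-2.16) and LUCAT1 (-2.02). With a replicate block in the fit, 0 genes were called as departing in either direction.

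The levels behind these departures were of several kinds. CCL2 was listed at 0 in both PC9 DMSO libraries and averaged 213 ± 31.4 FPKM in those of HCC4006 (SD, n = 2). In dormant cells CCL2 averaged 0.045 ± 0.0636 FPKM in PC9 and 611 ± 53.4 in HCC4006, where it was not called (1.52, adjusted p = 0.0803). HIST3H2BB rose in HCC4006 too, from 0.30 ± 0.339 to 3.35 ± 1.96 FPKM (1.69, adjusted p = 0.0367). In dormant PC9 it was at 0.32 ± 0.156 FPKM. KLK10 was at 29.9 ± 12.9 FPKM in HCC4006 DMSO and fell there to 5.23 ± 4.06. THBS1 had a wide spread in the other lines, at 422 ± 377 FPKM in HCC4006 DMSO, and its departure was 5.18 (adjusted p = 0.0325) without both doubted libraries.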

How the results depend on the processing

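Counts of called genes moved with the libraries fitted. Genes higher and lower numbered 450 and 211. They were 0 and 0 with HCC827 alone, 2082 and 806 with HCC827 and PC9, 1634 and 965 without both doubted libraries, and 1169 and 451 with array quality weights. With each library left out in turn, between 62 and 2174 were higher and between 22 and 800 lower. The number lower was 393 with median of ratios, 463 with quantile normalization and 386 with the GC trend removed. Genes more positive and more negative in HCC827 than in the other lines, 59 and 23, were 429 and 240 with HCC827 and PC9, 263 and 263 without both doubted libraries, 35 and 10 with array quality weights, 17 and 9 without a mean-variance trend, and 18 and 10 with a pseudocount of 0.1. Leaving out 1 library gave 6 to 2586 and 3 to 2144. The number more negative was 10 with the filter within HCC827, 37 with median of ratios and 43 with quantile normalization, and the number more positive was 36 with the GC trend removed. Genes apart between the DMSO libraries, 3636, became 6247 with a pseudocount of 0.1.

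The fit with a replicate block called 105 higher, 57 lower and 0 departing in either direction, and with the GC trend removed as well 170 higher, 171 lower, 2 more positive and 0 more negative. Deviations of same-numbered samples correlated at 0.091 in PC9, 0.037 in HCC827 and 0.168 in HCC4006. Each value rests on a single pair of libraries per group, so it cannot show whether the numbers pair the samples. ENSG00000257010 changed sign and was called without both doubted libraries (-1.48, adjusted p = 0.0418), its control being then DMSO replicate 1 alone. Of 121 named genes, 115 kept their side of the threshold without both doubted libraries, 68 without HCC827 DMSO replicate 2, 53 and 57 without the first and second dormant libraries, and 114 with the GC trend removed. The cause of these changes was not tested. Depth is unknown, so values near 0 FPKM carry no detection limit. The list medians of keratins, mucins, detoxification enzymes, metallothioneins, oxidative phosphorylation, MHC class II, anti-apoptotic genes, EGFR ligands, CEACAM and S100 genes, cholesterol synthesis, ATF4, hypoxia and Notch genes changed sign among the scalings.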

Other observations

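Some groups of HCC827 genes were not described above. For comparison, 3.06% of all tested genes rose and 1.44% fell. Of 24 detoxification enzymes, 2 rose (7 rose and 4 fell without both doubted libraries, 1 rose without DMSO replicate 2). CYP1A1, an oxidase induced by the aryl hydrocarbon receptor, was at 0.96 and 0.26 FPKM in DMSO and at 29 and 27.3 in dormant cells (4.22 ± 0.50, adjusted p = 0.0024). ALDH1A3, which makes retinoic acid, was at 10.8 and 7.86 FPKM and then at 51.4 and 51.0 (2.35 ± 0.46, adjusted p = 0.0201). Metallothioneins, which bind metal ions and are close copies that may share reads, split, with MT1F going from 5.48 and 6.92 FPKM to 59.1 and 79.2 and MT1A from 20.5 and 41.2 to 6.66 and 5.62. Both calls ended without DMSO replicate 2, and of the 12 fits with a library left out MT1F kept its call in 8 and MT1A in 3. Of 15 alveolar and lung lineage genes, AGER rose from 0.10 and 0 FPKM to 2.17 and 1.43 and AQP4 from 0 in both DMSO libraries to 1.32 and 1.41, while ETV5 fell. AGER, a marker of flat alveolar cells, had an adjusted p of 0.139 with the GC trend removed. The mucin MUC16, known as CA125, rose from 4.21 and 0.68 FPKM to 16.2 and 12 (2.34 ± 0.53, adjusted p = 0.0379). TUBB2B, a neuronal beta tubulin, was the tubulin with agreeing controls that rose, from 0.32 and 0.14 FPKM to 13.3 and 11.6 (3.45 ± 0.37, adjusted p = 0.00135). MYL9, a myosin light chain, rose from 0.26 and 0.36 FPKM to 3.62 and 2.16 (1.55, and 0.98 with an adjusted p of 0.177 when the GC trend was removed). The calls of AGER, AQP4, MUC16 and MYL9 ended without DMSO replicate 2. Of the 12 fits with a library left out, they were kept in 9, 2, 3 and 10, in that order.

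The called genes differed in type by direction. Processed pseudogenes made up 26 of the 211 genes that fell and 2 of the 450 that rose, of 1275 tested. Protein-coding genes made up 154 and 392 of these, of 11238 tested. Pseudogene reads may belong to their parent genes.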
